A study of Mus musculus with 12 samples.

Results

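The 10 genes described here encode the isoforms of glucose uptake and of the regulated and final steps of glycolysis: the glucose transporters Slc2a1 and Slc2a4, the hexokinases Hk1 and Hk2, the phosphofructokinases Pfkm, Pfkl and Pfkp, the pyruvate kinase Pkm, and the lactate dehydrogenases Ldha and Ldhb. They were chosen by symbol, with earlier results of these data known, and each was found once among the 47069 genes of the count matrix. Tibia shafts of male mice were studied at 8 weeks of age by RNA sequencing after the marrow had been flushed out, with 4 mice in each of 3 groups. Jrt;Sost-het mice carried 1 copy of Col1a1Jrt, a splice mutation of the type I collagen gene that models dominant severe osteogenesis imperfecta. The study's methods give their Sost genotype as heterozygous, which the sample labels leave out. Jrt;Sost-ko mice carried Col1a1Jrt/+ together with Sost-/- and so lacked sclerostin, the Wnt inhibitor made by osteocytes. WT mice carried neither allele and came from a parallel colony of the same mixed FVB/C57BL6 background, so that genotype and colony cannot be told apart in any comparison with WT. The mouse numbers used here name the animals and pair none of them across groups.

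Glucose enters cells through facilitative transporters, is trapped by hexokinase, is committed to glycolysis by phosphofructokinase and leaves the pathway as pyruvate or lactate. Osteoblasts obtain much of their energy from aerobic glycolysis, and Wnt signalling through Lrp5 is known to raise glycolytic enzymes in osteoblast cultures. The isoforms divide by tissue: Slc2a4 is the insulin-responsive transporter of muscle and fat, Slc2a1 a widely used transporter that osteoblasts carry, Pfkm the muscle phosphofructokinase, Hk2 the insulin-responsive hexokinase of muscle, and Hk1 the hexokinase of red cells and most other tissues. A shaft sample holds bone, adherent muscle and residual blood and marrow cells, so the levels below are those of a mixture. In such bulk samples, fewer cells of a type and less RNA per cell cannot be told apart.

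Promoter letters, which the choice of genes did not use, were searched in the members. RefSeq windows of GRCm38.p6, from 250 bases before to 50 bases after an annotated start, were found for 9 members in 15 windows, and Slc2a4 had no entry. The letters ACGTG, the core of the hypoxia response element bound by Hif1a, were searched on both strands and stood in 7 of the 15 windows, against 19.6% of all 32851 windows, a difference that was not tested. They were found in 6 of the 9 members and not in Pfkl, Pfkp or Ldhb. CAGCTG, the form of the E-box that myogenic factors bind, stood in 1 window (Pkm), against 16.3% of all windows, and CTTTGA, the core bound by TCF/LEF factors downstream of Wnt, stood in 2 windows (Pfkp and Ldha), against 16% of all. Where ACGTG matches overlap on the opposite strands the letters read CACGTG, and the capitals below mark every ACGTG match in either orientation. Shown are the stretches outside annotated exons for Ldha, which held the most matches, for Pfkm, whose level varied most among the mice, and for Hk1, which moved opposite to Pfkm and whose printed window held no match. The Ldha stretch is chr7:46845554-46845803 on the plus strand, the Pfkm stretch chr15:98092339-98092588 on the plus strand and the Hk1 stretch chr10:62379909-62380158 on the minus strand, each read from 5′ to 3′ along the gene.
Ldha: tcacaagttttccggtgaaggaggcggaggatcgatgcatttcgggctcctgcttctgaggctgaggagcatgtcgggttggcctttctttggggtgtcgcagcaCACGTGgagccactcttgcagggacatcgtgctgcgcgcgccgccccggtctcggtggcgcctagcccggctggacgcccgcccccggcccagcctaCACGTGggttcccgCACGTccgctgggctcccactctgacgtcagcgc
Pfkm: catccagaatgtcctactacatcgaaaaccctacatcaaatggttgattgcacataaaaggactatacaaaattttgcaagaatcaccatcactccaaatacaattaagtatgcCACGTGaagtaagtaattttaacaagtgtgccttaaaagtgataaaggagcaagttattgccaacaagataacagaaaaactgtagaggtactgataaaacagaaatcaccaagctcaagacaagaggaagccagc
Hk1: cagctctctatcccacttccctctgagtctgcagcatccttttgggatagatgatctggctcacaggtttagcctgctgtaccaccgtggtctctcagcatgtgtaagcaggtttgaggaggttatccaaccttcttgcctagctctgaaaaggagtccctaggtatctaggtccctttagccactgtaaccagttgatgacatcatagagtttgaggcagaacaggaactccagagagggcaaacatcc
Ldha held ACGTG at 3 places in this stretch and Pfkm at 1. Hk1 had 2 further matches in a second window and Pfkm had 1 in a second window. Whether a match in these letters went with the direction in which a member moved was not tested. The counts are per gene, so no level below belongs to one start site. A match is a run of letters and not a measured site.

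Library depth ranged from 24366061 to 44418863 counts, and the members together took between 0.183% and 0.327% of them. Sost, the gene targeted in the Jrt;Sost-ko mice, was at 50.7, 72.3, 62.2 and 28.5 counts per 1000000 counts of the library (CPM, scaled by the trimmed mean of M-values) in WT mice 1 to 4. It was at 28.0, 34.6, 70.4 and 26.8 CPM in the Jrt;Sost-het mice, and at 0.571, 1.28, 0.508 and 0.326 CPM in the Jrt;Sost-ko mice. Sost was lower in every Jrt;Sost-ko library than in every library of the other groups. The osteoblast list, with 10 genes of the bone-forming cell, summed to between 27300 and 80700 CPM, and its 10 genes were present in every library. A list of 16 skeletal muscle genes (Acta1, Ckm, Myh4, Ttn and other contractile or muscle energy genes) summed to 248 to 33900 CPM in the WT mice, 2730 to 31300 CPM in the Jrt;Sost-het mice and 33.6 to 13800 CPM in the Jrt;Sost-ko mice, with none of the 16 genes at 0 in any library. A cartilage list of 5 genes spanned 47.5 to 3200 CPM over the 12 mice. A list of 6 epidermal genes reached 117 CPM in WT mouse 3 and 540 CPM in WT mouse 4, and stayed at or under 3.93 CPM in the other 10 mice. Comparisons with WT and slopes over the 12 mice are therefore also given without these 2 WT mice. They were also the WT mice with the most muscle transcripts, at 14040 and 33930 CPM, against 2965 and 248 CPM in WT mice 1 and 2. Leaving them out changes the epidermal and the muscle content of the WT group together, so the 2 cannot be told apart in these fits.

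**Figure D1:**
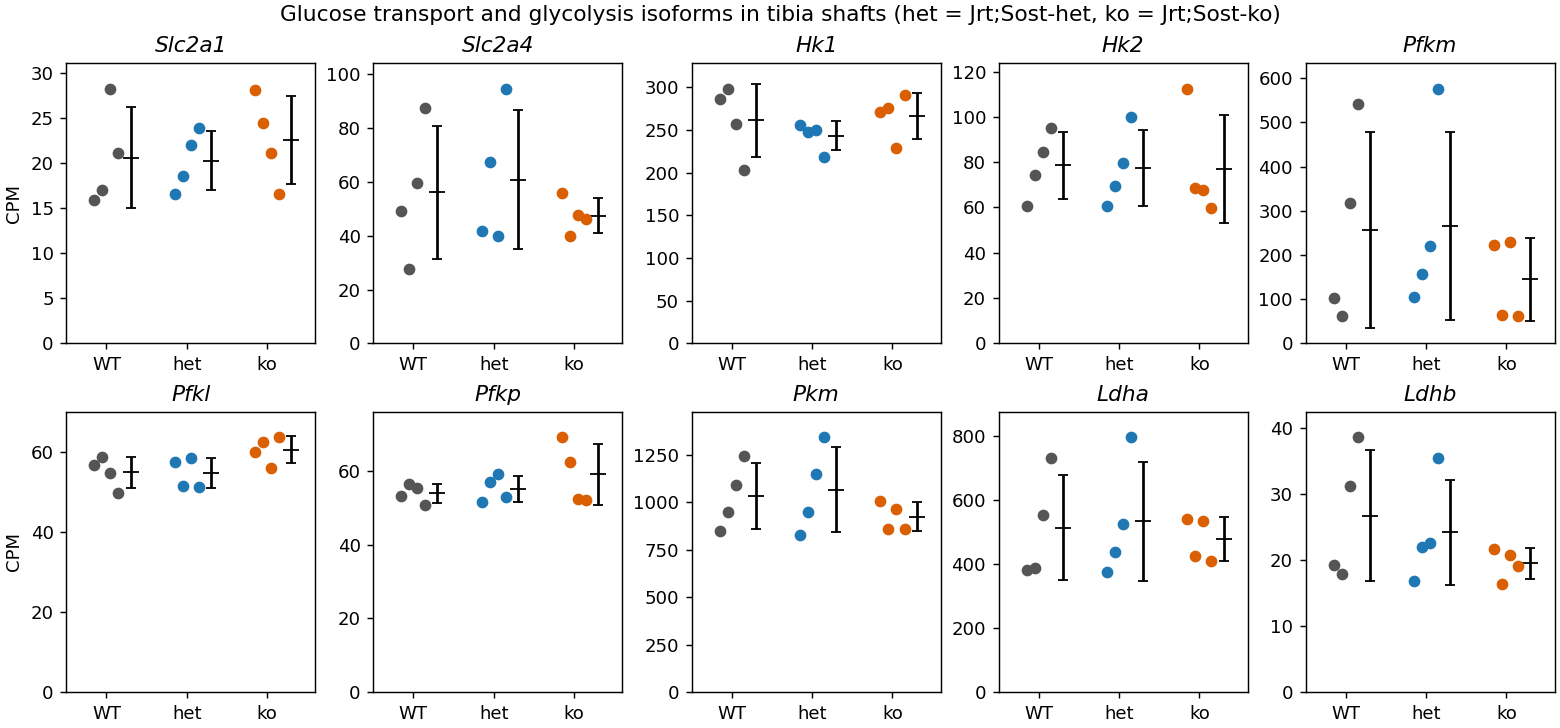
Level of each of the 10 members in CPM (vertical axis, from 0) in the 12 mice by group (horizontal axis), 1 point per mouse, with the group mean and SD (n = 4) drawn to the right of the points. The 3 groups overlap for every member, and Pfkm spreads furthest, from 60.8 to 577 CPM.

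Sclerostin deficiency came with no change in any member that passed the test. In the comparison of the 2 Jrt groups, given throughout as the sclerostin-deficient mice minus the Sost-het mice, all 10 members passed the filter on low counts, and edgeR's quasi-likelihood test with Benjamini-Hochberg adjustment called none of them (adjusted p 0.901 to 0.998), none had an unadjusted p under 0.05, and DESeq2 called none. Over all 16739 genes tested, 0.00597% were called at an adjusted p under 0.05, which is 1 gene, Sost, and 5.02% had an unadjusted p under 0.05. No member had groups that did not overlap, against 3.2% of all genes. The members had a median log2 difference of -0.08, with 4 higher and 6 lower in Jrt;Sost-ko mice, while the median over all genes was 0.00. Each edgeR p-value sets a group difference against the variation between mice within the groups, 4 in each, estimated with information shared across genes.

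Slc2a1 (ENSMUSG00000028645, chr4:119108711-119137983, GRCm38) was at 15.9, 17.1, 28.3 and 21.1 CPM in WT mice 1 to 4. It was at 16.6, 18.6, 22.0 and 23.8 CPM in the Jrt;Sost-het mice and at 28.1, 24.5, 21.1 and 16.6 CPM in the Jrt;Sost-ko mice. The range of the Jrt;Sost-het mice was narrower than the other 2 and lay within that of WT, with WT mouse 3 and Jrt;Sost-ko mouse 1 the highest. The log2 difference between the 2 Jrt groups was 0.16 (95% interval -0.24 to 0.55; adjusted p = 0.907, edgeR), an interval that holds a fall as well as a rise.

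Slc2a4 (ENSMUSG00000018566, chr11:69942539-69948188) was at 49.3, 27.7, 59.8 and 87.5 CPM in WT mice 1 to 4. It was at 41.6, 67.5, 39.7 and 94.7 CPM in the Jrt;Sost-het mice and at 55.9, 40.0, 47.5 and 46.3 CPM in the Jrt;Sost-ko mice. WT mouse 4 and Jrt;Sost-het mouse 4, the 2 mice with the most muscle transcripts, were the highest, and the Jrt;Sost-ko mice lay within the ranges of both other groups. The log2 difference between the Jrt groups was -0.36 (-0.97 to 0.24; adjusted p = 0.901, edgeR), and -0.06 without Jrt;Sost-het mouse 4.

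Hk1 (ENSMUSG00000037012, chr10:62268855-62379908) was at 287, 299, 257 and 203 CPM in WT mice 1 to 4, at 256, 248, 251 and 218 CPM in the Jrt;Sost-het mice and at 271, 276, 229 and 291 CPM in the Jrt;Sost-ko mice. It was lowest in WT mouse 4 and Jrt;Sost-het mouse 4, and 3 of the 4 Jrt;Sost-ko mice lay above all Jrt;Sost-het mice. The log2 difference was 0.13 (-0.06 to 0.33; adjusted p = 0.901, edgeR). Hk2 (ENSMUSG00000000628, chr6:82725025-82774454) was at 60.5, 74.3, 84.7 and 95.1 CPM in the WT mice, at 60.9, 69.7, 79.6 and 100.1 CPM in the Jrt;Sost-het mice and at 112.5, 68.5, 67.7 and 60.0 CPM in the Jrt;Sost-ko mice. Jrt;Sost-ko mouse 1 stood above every other mouse. The difference between the 2 Jrt groups was -0.01 on the log2 scale (-0.50 to 0.49; adjusted p = 0.998, edgeR).

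Pfkm (ENSMUSG00000033065, chr15:98092589-98132451) was at 102, 61.1, 318 and 542 CPM in WT mice 1 to 4. It was at 106, 157, 220 and 577 CPM in the Jrt;Sost-het mice and at 223, 65.1, 230 and 60.8 CPM in the Jrt;Sost-ko mice. Each group held mice that differed several-fold. The means were 256 ± 221, 265 ± 213 and 145 ± 94.5 CPM (SD, n = 4), and the log2 difference between the 2 Jrt groups was -0.88 with an interval from -2.29 to 0.54 (adjusted p = 0.901, edgeR). All 16 muscle genes were also lower on average in the sclerostin-deficient group than in the Jrt;Sost-het mice, by a median log2 difference of -0.98, and none of them was called by edgeR or DESeq2 or had an unadjusted p under 0.05. With the muscle list as a covariate the Pfkm difference was -0.22 (adjusted p = 0.963, edgeR), and without Jrt;Sost-het mouse 4, which held the most muscle transcripts of the Jrt mice, it was -0.15. In the same comparison all 5 cartilage genes were lower (median -1.90, 1 with an unadjusted p under 0.05) and 9 of 10 osteoblast genes higher (median 0.27, 2 with an unadjusted p under 0.05), with none called by edgeR. Their part in the member differences was not tested. Exons of Senp1 and Gm26513 overlap 10.7% of the Pfkm exon length, and the strand setting of the counting was not given in the sources used here, so some of the Pfkm counts could belong to these genes.

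Pfkl (ENSMUSG00000020277, chr10:77986947-78010083), the liver-type subunit found in most tissues, showed the difference nearest to the threshold. It was at 56.7, 58.7, 54.7 and 49.7 CPM in the WT mice, at 57.6, 51.7, 58.5 and 51.4 CPM in the Jrt;Sost-het mice and at 60.1, 62.6, 56.1 and 63.8 CPM in the Jrt;Sost-ko mice. In 3 of the 4 Jrt;Sost-ko mice it was above all Jrt;Sost-het and all WT mice. The log2 difference from Jrt;Sost-het was 0.15 (-0.00148 to 0.29), with an unadjusted p of 0.0519 and an adjusted p of 0.901 (edgeR). The two-sided exact permutation test over the 8 mice gave p = 0.0857, where the smallest p that 4 against 4 mice allow is 0.0286. Pfkp (ENSMUSG00000021196, chr13:6579768-6648777), the platelet-type subunit, ranged from 50.6 to 69.2 CPM, and its log2 difference was 0.10 (-0.12 to 0.33; adjusted p = 0.904, edgeR).

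Pkm (ENSMUSG00000032294, chr9:59656368-59679375), which makes pyruvate and ATP in the last step of glycolysis, was at 848, 950, 1094 and 1242 CPM in WT mice 1 to 4. It was at 830, 949, 1147 and 1344 CPM in the Jrt;Sost-het mice and at 1009, 857, 966 and 862 CPM in the Jrt;Sost-ko mice. The Jrt;Sost-ko mice lay in the lower part of the other 2 ranges, with a log2 difference from Jrt;Sost-het of -0.21 (-0.55 to 0.13; adjusted p = 0.901, edgeR). Gm49759 overlaps 15.3% of its exon length, and the counts cannot divide the M1 and M2 splice forms. Windows of 100 bases shared with Gm49759, Gm6560 or Gm6992 covered 9.82% of Pkm.

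Ldha (ENSMUSG00000063229, chr7:46841475-46855627), the isoform that favours lactate production, was at 383, 388, 555 and 732 CPM in WT mice 1 to 4. It was at 374, 439, 527 and 798 CPM in the Jrt;Sost-het mice and at 543, 426, 536 and 411 CPM in the Jrt;Sost-ko mice. Ldhb (ENSMUSG00000030246, chr6:142490249-142507957), the heart-type isoform that favours lactate oxidation, ranged from 17.9 to 38.6 CPM in the WT mice, from 16.8 to 35.5 CPM in the Jrt;Sost-het mice and from 16.4 to 21.7 CPM in the Jrt;Sost-ko mice. Both genes were highest in WT mouse 4 and Jrt;Sost-het mouse 4. The log2 differences between the 2 Jrt groups were -0.16 (-0.67 to 0.35) for Ldha and -0.31 (-0.79 to 0.16) for Ldhb, with adjusted p-values of 0.924 and 0.901 (edgeR). Without Jrt;Sost-het mouse 4 the Ldhb difference was -0.06. Windows of 100 bases shared with a pseudogene or other gene covered 1.28% of Ldha and 8.8% of Ldhb, and such reads could be split by the counting.

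**Figure D2:**
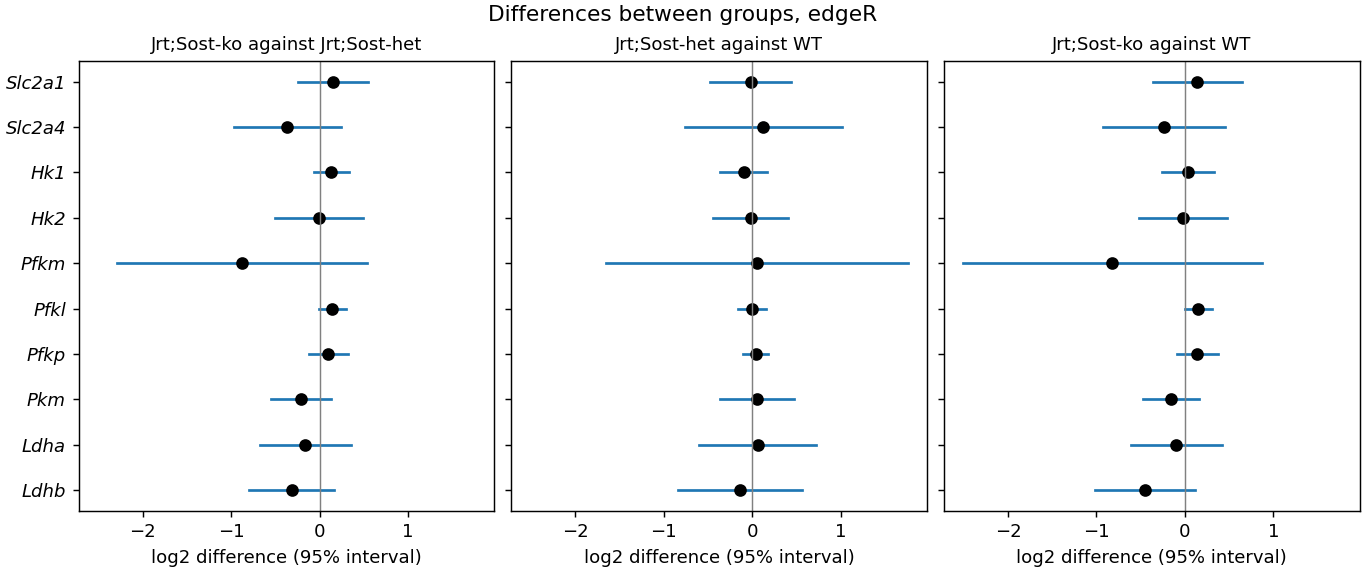
Log2 difference in level of each member (points) with its 95% interval (lines) from edgeR in the 3 comparisons, 4 mice against 4 in each, with the direction given as first group minus second. Every interval spans 0, and those of Pfkm are the widest, from -2.29 to 0.54 between the 2 Jrt groups.

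The osteogenesis imperfecta mutation and the combined genotypes also gave no called member. In Jrt;Sost-het against WT mice, edgeR called none of the 10 members (adjusted p 1 for each) and 0% of all 16775 genes tested, while 2.14% of all genes and none of the members had an unadjusted p under 0.05. In Jrt;Sost-ko against WT mice, none of the members was called (adjusted p 1 for each), against 0.00583% of 17155 genes, again Sost alone, and 3.89% of all genes had an unadjusted p under 0.05 but none of the members. DESeq2 called no member in either comparison. No member had groups that did not overlap, against 1.54% of all genes in the first comparison and 2.4% in the second.

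No interval of a member difference from WT left out 0. In Jrt;Sost-het mice they ran from -0.14 (Ldhb) to 0.12 (Slc2a4) on the log2 scale, and the widest interval was that of Pfkm, -1.65 to 1.76. In Jrt;Sost-ko mice they ran from -0.82 (Pfkm, -2.51 to 0.87) to 0.15 (Pfkl, -0.00408 to 0.30), and Ldhb stood at -0.45 (-1.02 to 0.12). These comparisons share the WT or the Jrt groups, so their values are not independent of one another. Without WT mice 3 and 4 the Pfkm difference of Jrt;Sost-ko from WT was 0.83 and that of Ldha 0.32, opposite in sign to the values with all 4 WT mice, and no member was called. Without WT mouse 4 alone the Pfkm difference was -0.15. In Jrt;Sost-het against WT without WT mice 3 and 4, the Pfkm difference was 1.72 in place of 0.05. Those of Slc2a4 and Ldha were 0.68 and 0.49 in place of 0.12 and 0.06, and no member was called. With the muscle list as a covariate, the Pfkm difference of Jrt;Sost-het from WT was -0.26 in place of 0.05, and again no member was called.

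No other gene of the pathway was called either. Of 32 glucose transporter, glycolysis, lactate transport and pyruvate dehydrogenase kinase genes, 30 were tested between the 2 Jrt groups and edgeR called none, with 8 higher and 22 lower and a median log2 difference of -0.16. The 2 of 30 with an unadjusted p under 0.05, against 5.02% of all genes, were the transporters Slc2a6 (-0.37, adjusted p = 0.901, edgeR) and Slc2a8 (-0.29, adjusted p = 0.901, edgeR). DESeq2 also called no gene of the pathway list in any of the 3 comparisons. Slc2a8 went from a mean of 13.5 CPM in Jrt;Sost-het mice to 11.0 CPM in Jrt;Sost-ko mice, and these ranges were apart, as they were for 3.2% of all genes. Slc2a3, the high-affinity transporter of neurons and blood cells, differed by -0.04, and among the shared steps Gpi1 differed by -0.10, Pgam1 by 0.00, Eno1 by -0.03, Pgk1 by -0.21 and Gapdh by -0.28. The isoenzymes of muscle stood lower, with Pgam2 at -1.10 (-3.81 to 1.61) and Eno3 at -0.95 (-3.05 to 1.14), and Aldoa, Tpi1 and the pyruvate dehydrogenase kinase Pdk4 at -0.69, -0.38 and -0.49. None of these passed the test. In Jrt;Sost-het against WT the pathway median was 0.00, with no gene called and 1 of 30 (Hif1a, the hypoxia factor) at an unadjusted p under 0.05, against 2.14% of all genes. In Jrt;Sost-ko against WT it was -0.16, with no gene called and 3 of 30 at an unadjusted p under 0.05, against 3.89% of all genes, which were Slc2a8 (-0.29), the lactate exporter Slc16a3 (-0.36) and Hif1a (0.27).

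Several members moved with the amount of muscle RNA in a library. Ordered from the fewest to the most muscle transcripts, the 12 mice began with Jrt;Sost-ko mouse 4 at 33.6 CPM of muscle genes and WT mouse 2 at 248 CPM, passed Jrt;Sost-ko mouse 2 at 2334 CPM and WT mouse 1 at 2965 CPM, and ended with Jrt;Sost-het mouse 4 at 31260 CPM and WT mouse 4 at 33930 CPM. Pfkm was at 60.8 and 61.1 CPM in the first 2 of these mice and at 577 and 542 CPM in the last 2. Within each of the 3 groups the mice stood in the same order by Pfkm as by the muscle list. Ldha was at 411 and 388 CPM in the first 2 mice and at 798 and 732 CPM in the last 2. Hk1 went the other way, from 291 and 299 CPM to 218 and 203 CPM.

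**Figure D3:**
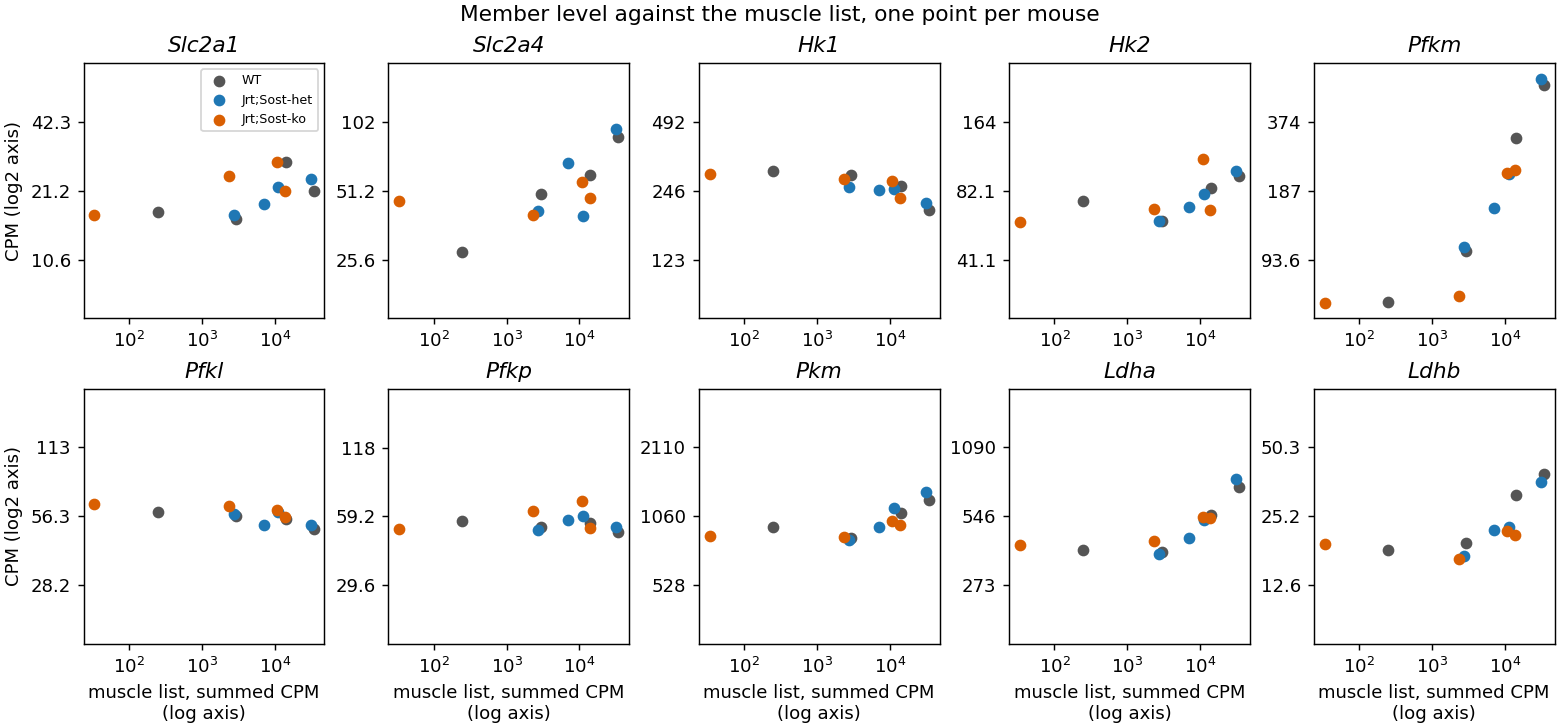
Level of each member (vertical axis, CPM on a log2 axis of equal length in every panel) against the summed CPM of the 16 muscle genes (horizontal axis, log scale), 1 point per mouse, coloured by group. Pfkm climbs from 60.8 to 577 CPM with the muscle list in all 3 groups, Slc2a4, Ldha and Ldhb climb less and mainly above 10000 CPM of muscle genes, and Hk1 and Pfkl slope downwards.

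A fit over the 12 mice with a term for group gave each gene a slope, the difference in log2 CPM for 1 log2 unit of the mean muscle level. Of the 10 members, 3 rose and 1 fell at an adjusted p under 0.05 (edgeR), where 8.73% of all 17245 genes tested rose and 5.65% fell. Pfkm had a slope of 0.33 (0.19 to 0.46; adjusted p = 0.00736, edgeR), Ldha of 0.09 (0.03 to 0.15; adjusted p = 0.0472, edgeR) and Slc2a1 of 0.08 (0.03 to 0.13; adjusted p = 0.0461, edgeR). Hk1 fell with a slope of -0.04 (-0.07 to -0.02; adjusted p = 0.0409, edgeR). The slope of Pfkm passed the test when any 1 of the 12 mice was left out, whereas those of Ldha and Hk1 passed in 3 and that of Slc2a1 in 2 of the 12 such fits. Without WT mice 3 and 4 no member passed, where 2.21% of all genes rose and 0.469% fell at an adjusted p under 0.05 (edgeR). The slope of Pfkm was then 0.27 with an adjusted p of 0.0757 (edgeR). In that fit 3 members had an unadjusted p under 0.05, and the matching share of all genes was not computed. Hk1 also missed the threshold with DESeq2 size factors, without the filter on low counts and with scaling that left out muscle, erythroid and neutrophil genes, and Slc2a1 missed it without the group term.

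The 6 other members did not pass on this scale. Slc2a4, named for muscle and fat, had a slope of 0.10 (0.01 to 0.19; adjusted p = 0.116, edgeR), with Jrt;Sost-ko mouse 4 at 46.3 CPM although it held the fewest muscle transcripts. Ldhb had a slope of 0.09, Hk2 of 0.07, Pkm of 0.05, Pfkl of -0.02 and Pfkp of 0.01, with adjusted p-values of 0.0911, 0.0832, 0.13, 0.0949 and 0.705 (edgeR). The scale mattered. With the summed CPM of the muscle list in place of its mean log2 level, an alternative chosen after the data had been seen, 6 members rose and 1 fell, against 9.97% and 7.86% of all genes. Per 10000 CPM of muscle genes, Pfkm then rose by 0.94 on the log2 scale, Slc2a4 by 0.36, Ldha and Ldhb by 0.32 each, Hk2 by 0.20 and Pkm by 0.18, and Hk1 fell by 0.13, each with an adjusted p under 0.05 in edgeR. Slc2a1 did not pass on the summed scale (0.15, adjusted p = 0.164, edgeR). In the 10 mice other than WT mice 3 and 4, Pfkm (1.01), Ldha (0.36) and Ldhb (0.31) still rose per 10000 CPM, against 2.19% of all genes, while Slc2a4, Hk2, Pkm and Hk1 no longer passed.

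Among the other pathway genes, 6 of the 31 tested rose with the mean muscle level and 3 fell, against 8.73% and 5.65% of all genes. The rises were led by Pgam2, the muscle phosphoglycerate mutase, at 0.99 (adjusted p = 4.5e-09, edgeR) and Eno3, the muscle enolase, at 0.62 (adjusted p = 0.000127, edgeR). The others were Pdk4 at 0.31, Aldoa at 0.26, Pdk2 at 0.23 and Tpi1 at 0.13. The counterparts of Pgam2 and Eno3 outside muscle, Pgam1 and Eno1, had slopes of -0.02 and -0.03 (-0.0566 to -0.00532 for Eno1). Gpi1 stood at 0.01, and neither it nor these counterparts passed the test. Slc2a3 stood at -0.05, Gapdh at 0.09 and Pgk1 at 0.05, also without passing on this scale. With WT mice 3 and 4 left out, Pgam2 (0.996), Eno3 (0.55) and Pdk4 (0.24) still rose and no pathway gene fell. Of all genes, 2.21% rose and 0.469% fell in that fit. The falls with all 12 mice were Pklr, the pyruvate kinase of liver and red cells, at -0.07, the lactate transporter Slc16a1 at -0.05 and Pdk3 at -0.04. Per 10000 CPM of the summed list, Gapdh (0.32, adjusted p = 0.000332, edgeR) and Pgk1 (0.19, adjusted p = 0.001, edgeR) rose. Slc2a3 fell (-0.15, adjusted p = 0.0338, edgeR), where 9.97% of all genes rose and 7.86% fell. Gpi1, Pgam1 and Eno1 did not pass, and others that did are not listed. Without WT mice 3 and 4, Aldoa, Tpi1, Gapdh, Pgk1, Slc16a3 and Pdk2 rose on the summed scale, against 2.19% of all genes, and no pathway gene fell. Regions shared with pseudogenes or other genes covered 78% of the 100-base windows of Gapdh, 67% of Pgk1, 59% of Eno1 and 39.7% of Pgam1, and their counts are uncertain to that extent.

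**Figure D4:**
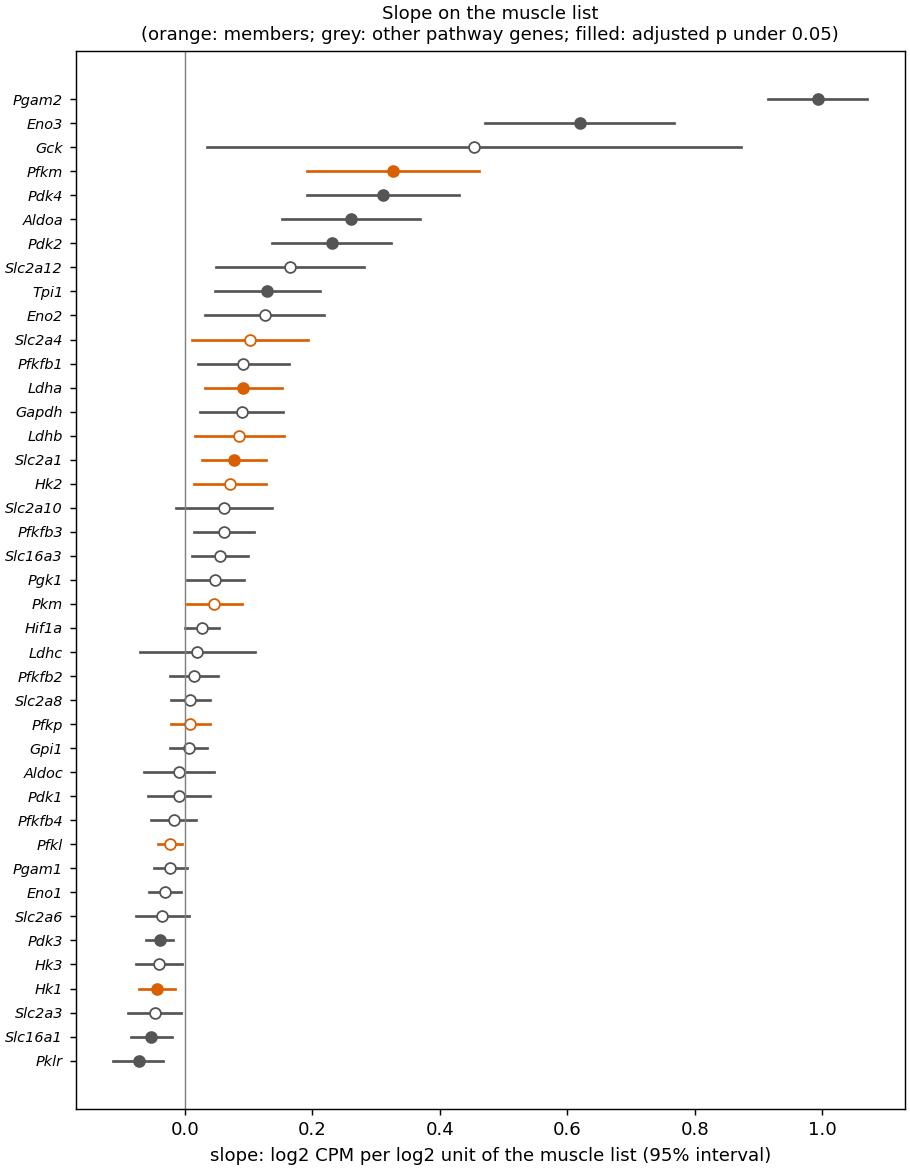
Slope of the 10 members (orange) and 31 other pathway genes (grey) on the mean level of the muscle list in log2 CPM per log2 unit, with 95% intervals, from an edgeR fit over 12 mice with a group term. Filled points have an adjusted p under 0.05, and Pgam2 (0.99), Eno3 (0.62) and Pfkm (0.33) are the highest of these.

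Lists of other cell types moved with the members too. The summed erythroid list lay between 15700 and 31200 CPM and was 15700 and 17280 CPM in the 2 mice with the most muscle. On the erythroid list 1 member rose (Hk1, 0.49) and 4 fell (Pfkm -3.34, Ldha -1.16, Ldhb -1.14 and Pkm -0.66), where 6.88% of all genes rose and 8.59% fell. On the neutrophil list Hk1 rose (0.58) and Pfkm fell (-3.32), against 9.55% and 11.3% of all genes. On the osteoblast list no member rose and Hk1 fell (-0.39, adjusted p = 0.0466, edgeR), against 11.1% and 8.34%. On the adipocyte list edgeR called no member and 0% of all genes in either direction, and 2 members had an unadjusted p under 0.05, against 10.6% of all genes, Slc2a4 (0.98) and Ldhb (0.69), each with an adjusted p of 0.467. When WT mice 3 and 4 were left out, edgeR called no member on any of these 4 lists, and few genes of any kind. Of all genes, 0.875% rose and 0.0226% fell on the osteoblast list, and 0.48% and 0.147% on the erythroid list. On the neutrophil and adipocyte lists it was 0% in either direction. At an unadjusted p under 0.05 stood 5 members on the erythroid list, 1 on the neutrophil list and 0 on the others. The matching shares of all genes were not computed for these 10 mice, so the counts cannot be read as a result about the members. With all 12 mice, 5311 of 17245 genes and 9 of 10 members had an unadjusted p under 0.05 on the erythroid list (edgeR). There were 6373 such genes and 6 such members on the neutrophil list, and 6128 and 1 on the osteoblast list. These lists share the 12 libraries, so a member's slope on one is not independent of its slope on another, and which cell type a member follows was not tested.

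Per kilobase of exon, the order of the members was led by Pkm, with a median of 192 RPKM (CPM divided by the exon length in kilobases), and Ldha at 146 RPKM. Pfkm followed at 56.4, Hk1 at 30.1, Slc2a4 at 13.9, Ldhb at 13.5, Hk2 at 12.1, Pfkl at 8.57, Slc2a1 at 6.02 and Pfkp at 4.05 RPKM. Pkm was above Ldha in 12 of 12 mice although their ranges over mice overlapped. The only neighbours whose ranges did not overlap were Hk2 and Pfkl. Pfkm exceeded Hk1 in 8 of the 12 mice, and Slc2a4 exceeded Ldhb in 9, so these neighbours changed places from mouse to mouse. Between the highest and the lowest mouse, Pfkm varied 9.49-fold, Slc2a4 3.42-fold, Ldhb 2.36-fold, Ldha 2.13-fold, Hk2 1.88-fold, Slc2a1 1.78-fold, Pkm 1.62-fold, Hk1 1.47-fold, Pfkp 1.37-fold and Pfkl 1.28-fold.

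**Figure D5:**
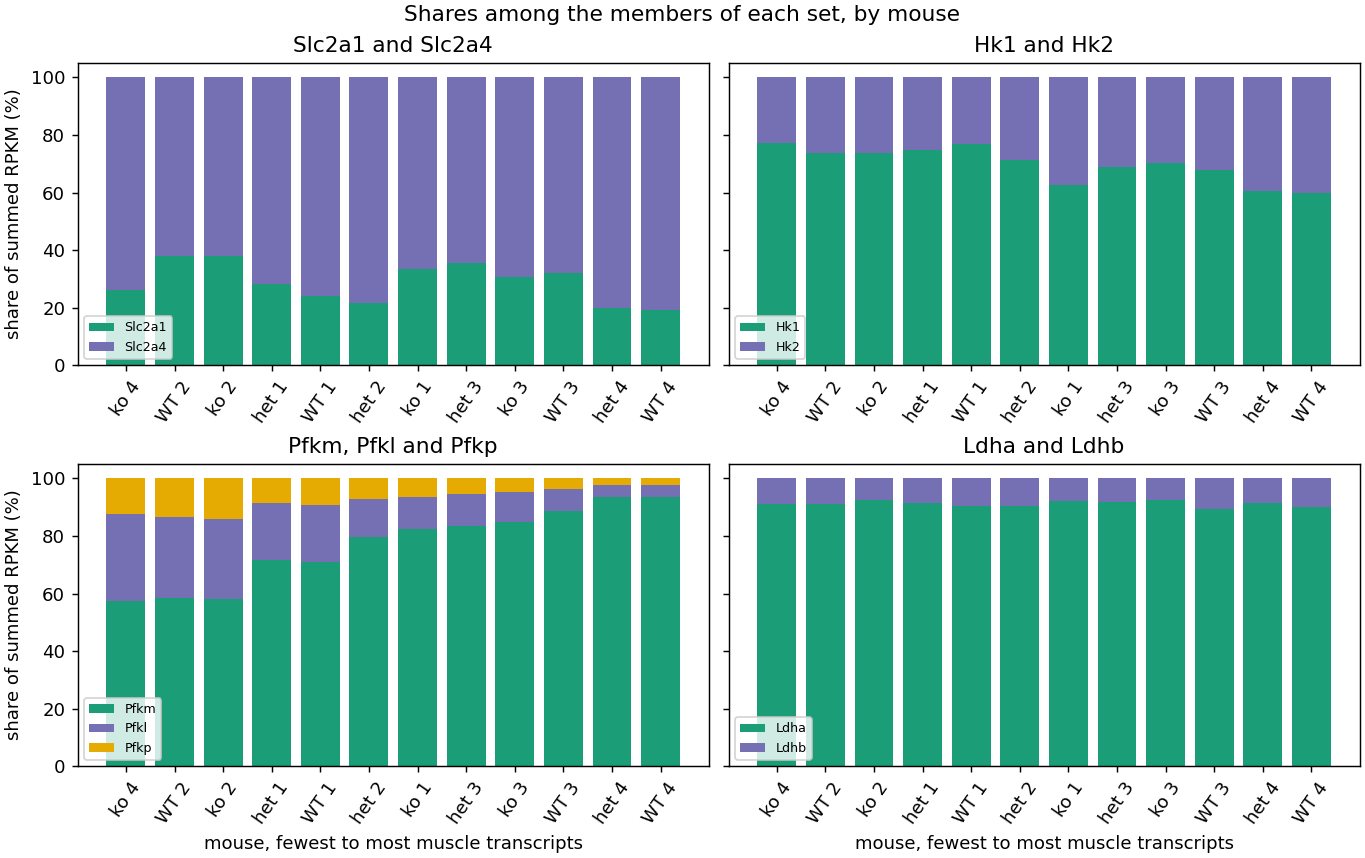
Share of each member in the summed RPKM of the members of its kind (vertical axis, percent) for the 12 mice, ordered along the horizontal axis from the fewest to the most muscle transcripts. The sums hold Slc2a1 and Slc2a4, Hk1 and Hk2, the 3 phosphofructokinases, and Ldha and Ldhb, and leave out Slc2a3 and Hk3. Pfkm goes from 57.5% in Jrt;Sost-ko mouse 4 to 93.7% and 93.5% in the last 2 mice, while Ldha stays between 89.4% and 92.5%.

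The shares among members of a kind differed in how steady they were. Pfkm supplied 57.5% to 93.7% of the phosphofructokinase RPKM, with a median of 79.8% in WT mice, 81.5% in the Jrt;Sost-het group and 70.3% in the Jrt;Sost-ko group. In counts, not divided by exon length, the medians were 61.2%, 62.1% and 48.8%. In the 2 mice with the fewest muscle transcripts Pfkm made up 57.5% and 58.4% of the RPKM and Pfkl 30.2% and 28.1%, but in CPM Pfkm (60.8) was below Pfkl (63.8) in Jrt;Sost-ko mouse 4. Hk1 supplied 59.9% to 77.2% of the summed RPKM of Hk1 and Hk2, and Slc2a4 62.1% to 80.7% of that of Slc2a1 and Slc2a4, and their group ranges overlapped. Isoforms outside these pairs were higher, since Hk3, the hexokinase of white blood cells, had a median of 58.2 RPKM against 30.1 for Hk1, and Slc2a3 one of 29.8 against 13.9 for Slc2a4. Ldha supplied 89.4% to 91.2% of the lactate dehydrogenase RPKM in WT, 90.5% to 91.7% in Jrt;Sost-het and 91.1% to 92.5% in Jrt;Sost-ko mice, so that the Jrt;Sost-ko range touched the WT range at its lower end. The shares depend on the exon lengths taken from the annotation and were not tested.

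The genes whose log2 CPM most resembled a member over the 12 mice differed from member to member. The values are Pearson correlations over 12 libraries that share depth and tissue make-up, and they are a description without a test. Pfkm was most like Myom1, a sarcomere protein (r = 0.994), Coq10a (0.993) and Slc25a4, the mitochondrial ADP/ATP carrier of muscle and heart (0.993). Pkm was most like the glycolytic Pgk1 (0.978) and Gapdh (0.974) and like Aes (0.965). Ldha was most like Cycs, cytochrome c (0.981), Ccng1 (0.980) and Tpi1 (0.979), and Ldhb like the mitochondrial Ndufb5 (0.977), Cs, citrate synthase (0.975), and Mfn2 (0.971). Slc2a4 was most like Ybx2 (0.982), which lies 934 bases away on the opposite strand of chromosome 11 with its end facing that of Slc2a4, followed by Pick1 (0.931) and Acadvl (0.929). Acadvl lies 61995 bases from Slc2a4 on the same chromosome, and Pick1 lies on chromosome 15. Whether reads of Slc2a4 and Ybx2 could be assigned to each other was not tested. Whether nearness plays a part in these correlations was not tested either. Hk1 was most like Tcea1 (0.983), Depdc1b (0.970) and Rbm43 (0.968), and Hk2 like Rab10 (0.920), Cntfr (0.911) and Clip1 (0.882). Slc2a1 was most like Tnfsf12 (0.904), Gm13889 (0.884) and Ahnak (0.852), Pfkl like Pcbp1 (0.956), Rcl1 (0.937) and Nol11 (0.932), and Pfkp like Csf2rb2 (0.969), Saa3 (0.948) and 1600014C10Rik (0.943).

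Among the members themselves, Ldha and Pkm were the most alike pair (r = 0.935), followed by Ldha and Pfkm (0.927). Hk1 ran against Pfkm (-0.868) and Ldha (-0.825) and along with Pfkl (0.797). Slc2a1 and Hk2 were alike (0.755), both with Jrt;Sost-ko mouse 1 at or near the top. Pfkp was close to neither the muscle list (0.06) nor Pfkm (-0.15).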

How the data were processed

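RNA of 12 tibia shafts was sequenced in pairs of reads after poly(A) selection. The authors aligned the reads to GRCm38 with STAR and deposited raw counts per gene, and the submitters' processing notes also name bcl2fastq 2.20, Cufflinks, Cuffdiff and DESeq. The counting tool, its strand setting and the annotation release are not given in the sources used here. The deposited comparison tables hold the authors' fold changes and p-values and 96 further per-sample columns, none of which was used. The members and gene lists were chosen with earlier results of these data known.

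Counts were scaled by TMM and tested with edgeR 4.0.16 (R 4.3.3) across all genes that filterByExpr kept, with an adjusted p under 0.05, fitting only the groups compared. Slopes used all 12 mice with a group term. The study used DESeq; DESeq2 1.42.0 was an alternative. CPM are TMM-scaled, and log2 CPM used a prior count of 2. RPKM divided CPM by the exon length of GENCODE M21, to which 98.9% of gene identifiers matched. Exact permutation tests were two-sided over 8 mice. The fits were tested on simulated data. Named were the members, Sost, 11 preset pathway genes, those that a count of 5 or fewer singled out, and the 3 genes most correlated with each member. Pathway genes called in a group comparison or on the mean muscle level were also named (the 5 largest rises and falls where over 10 were). On the summed muscle scale with all 12 mice, not every called pathway gene is named. Slopes on the cell type lists other than muscle are given for the members. Replicates differed by more than sampling noise (chi-square per degree of freedom 25.8 to 250).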

Additional observations from a re-analysis of the deposited data

Results flagged for a closer look

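Within the Jrt;Sost-ko mice, the Hk2 level of mouse 1 stood apart from the other 3. It was at 112.5 CPM against 60.0 to 68.5 CPM, so that its gap to the nearest mouse took up 0.838 of the whole range of the group, above the 95% limit of Dixon's test for 4 samples. Of 48 groups of 4 values tested this way, 1 was marked, where chance alone marks 2.4. This mouse did not have the most muscle transcripts of its group (10790 CPM, against 13760 CPM in mouse 3), and it also had the highest Slc2a1 (28.1 CPM) and Pfkp (69.2 CPM) of the 4.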

How the results depend on the processing

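No member was called in any of the 3 group comparisons under any alternative run (14, 15 and 16 alternatives), which were DESeq2, DESeq2 size factors, no filter on low counts, scaling without muscle, erythroid and neutrophil genes, 1 fit of all 12 mice, the muscle list as a covariate, and leaving out mice. Counts over all genes moved: DESeq2 called 7 genes between the 2 Jrt groups, 4 in Jrt;Sost-het against WT and 18 in Jrt;Sost-ko against WT, where edgeR called 1, 0 and 1. On the muscle slope edgeR called 2480 genes, 474 without WT mice 3 and 4, 771 without WT mouse 2 and 1160 without WT mouse 4. The muscle list as a covariate left 0 called between the 2 Jrt groups, as did leaving out Jrt;Sost-ko mouse 1, 3 or 4, while 2 and 3 were called without Jrt;Sost-het mouse 2 or 3. In Jrt;Sost-ko against WT, 2 were called without a filter or without WT mouse 4, and 0 without WT mouse 1 or 3, without Jrt;Sost-ko mouse 1, 3 or 4, or without Jrt;Sost-ko mouse 4 and WT mouse 2 together. The lowest count of a member in a library was 438 (Slc2a1).

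The number of members called on the muscle slope was 4 as reported, 7 with the summed CPM of the list, 0 without WT mice 3 and 4, and 1 to 5 when 1 mouse was left out. It was 3 with DESeq2 size factors, without a filter and with scaling that left out muscle, erythroid and neutrophil genes, where Hk1 lost its call, and 4 without the group term, where Slc2a1 lost its call and Ldhb gained one. Calls over all genes moved as well, from about 2480 as reported to about 3080 with the summed CPM. They ran from 771 to about 2980 with 1 mouse left out. In the settings named with Hk1 or Ldhb they ran from about 2170 to about 2520. The slope of Pfkp, not called, was -0.0168 with the summed CPM and ranged from -0.0128 to 0.0189 with 1 mouse left out.

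Without WT mice 3 and 4, an alternative added for the other lists after the data had been seen, members called went from 1 to 0 on the osteoblast list, from 5 to 0 on the erythroid list and from 2 to 0 on the neutrophil list. Calls over all genes fell as well, from about 3340 to 159, from about 2670 to 111 and from about 3600 to 0. Uncalled slopes that turned were, on the osteoblast list, Slc2a1 -0.0596, Slc2a4 -0.172, Hk2 -0.558, Pfkm -0.306, Pkm -0.528, Ldha -0.518 and Ldhb -0.65, and on the neutrophil list Slc2a1 0.102 and Hk2 0.0937.

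Differences that turned sign were all uncalled. With the muscle covariate they were, between the 2 Jrt groups, Hk2 0.191 and Ldha 0.0467; for Jrt;Sost-het against WT, Slc2a4 -0.0553, Pfkm -0.257, Pkm -0.0405 and Ldha -0.108; and for Jrt;Sost-ko against WT, Hk1 -0.0114, Hk2 0.0527 and Ldha 0.0357. Without WT mice 3 and 4 they were, for Jrt;Sost-het against WT, Slc2a1 0.316, Hk2 0.22, Pfkl -0.0582 and Ldhb 0.401, and for Jrt;Sost-ko against WT, Slc2a4 0.307, Hk1 -0.129, Hk2 0.199, Pfkm 0.832, Pkm 0.0433, Ldha 0.318 and Ldhb 0.0747. Without Jrt;Sost-ko mouse 4 and WT mouse 2, left out together after the data had been seen, Hk2 was 0.0587 in Jrt;Sost-ko against WT. Pfkl in Jrt;Sost-het against WT was -0.00115 by DESeq2 and -0.000996 with its size factors. With 1 mouse left out, Hk2 ranged from -0.249 to 0.146 and Ldha from -0.303 to 0.107 between the 2 Jrt groups. In Jrt;Sost-het against WT the ranges were -0.125 to 0.175 for Slc2a1, -0.18 to 0.418 for Slc2a4, -0.169 to 0.0876 for Hk2, -0.677 to 0.724 for Pfkm, -0.0493 to 0.0373 for Pfkl, -0.0855 to 0.157 for Pkm, -0.207 to 0.274 for Ldha and -0.389 to 0.0875 for Ldhb. In Jrt;Sost-ko against WT they were -0.462 to 0.0623 for Slc2a4, -0.0687 to 0.108 for Hk1, -0.262 to 0.0807 for Hk2 and -0.22 to 0.121 for Ldha. The cause was not tested.

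No paired analysis was possible because the mouse numbers were given in accession order and pair no animals.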
